A study of Mus musculus with 22 samples.

Results

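The genes described here encode subunits of the mitochondrial respiratory chain and ATP synthase that are carried in the nucleus, and 8 complex I assembly factors. They were taken by symbol from the platform annotation: symbols that start with Ndufa, Ndufb, Ndufc, Ndufs, Ndufv, Uqcr, Cox4i, Cox5, Cox6, Cox7, Cox8 or Atp5, together with Sdha, Sdhb, Sdhc, Sdhd and Cyc1. Where more than 1 probe set named a gene and no other, the brightest by its mean of the 22 arrays was taken. This gave 91 of the 18193 genes measured, each placed in a complex by the start of its symbol alone. Complex I held 36 genes, Ndufa4 and Ndufa4l2 among them, beside 8 complex I assembly factors whose symbols start with Ndufaf. Complex II held 4 genes, complex III 9, complex IV 17 and complex V 17. Whether each gene product belongs to the complex that its symbol names was not tested. The choice used symbols and mean brightness and no difference between groups. A further 8 symbols that match it, Ndufa11 and Ndufs6 among them, were named only by probe sets that also name another gene and were left out.

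The study measured RNA from the terminal ileum, the last stretch of the small intestine, of NOD mice on 22 one-colour arrays. NOD is an inbred strain prone to autoimmune diabetes. The groups were control females (3 arrays), females given pulsed therapeutic doses of antibiotics (PAT, 3), females given sub-therapeutic antibiotic treatment (STAT, 3), control males (5), PAT males (5) and STAT males (3). All groups share the NOD background and the tissue, and the comparisons of PAT and of STAT with control use the same control arrays. The sources used here do not name the drugs, the dosing times or the age of the mice. They also do not say that each array holds a separate animal, so p-values measure the spread between these arrays, which may be technical. The question addressed is how the RNAs of the respiratory chain stand in the ileum after each antibiotic regimen.

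As background, the respiratory chain sits in the inner mitochondrial membrane. Complexes I and II pass electrons from NADH and succinate to ubiquinone, complex III passes them on to cytochrome c, and complex IV hands them to oxygen. Complexes I, III and IV pump protons, and complex V uses the returning protons to make ATP. Complex I, the largest of them, is put together from modules with the help of assembly factors that are not part of the finished enzyme. In the small intestine the enterocytes, which absorb nutrients, and the dividing cells of the crypts differ in how far they rely on respiration.

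The deposited log2 values had column medians of 5.68 to 5.79. Enterocyte markers were bright on every array, with the ileal bile acid binding protein Fabp6 at 13.93 to 14.62 and the bile acid transporter Slc10a2 at 9.61 to 11.98. The mean of 9 skeletal and heart muscle markers stayed at 5.54 to 5.88. The mean of 7 adipocyte markers ran from 5.65 to 8.38, with ranges that overlapped among all 6 groups, and Adipoq alone ran from 4.14 to 12.08. With PAT over both sexes 0 of these 7 were called, and the part of fat tissue in the members' values was not tested. The tissue holds several cell types, and in such bulk RNA fewer cells of a type and less RNA per cell cannot be told apart. Of the members, 52 had a mean log2 level of at least 12, a brightness that 535 of all genes reached. The probe sets that stood for Cox4i2, Cox7b2, Cox8b and Ndufb4 had means of 3.62 to 5.77, where RMA values compress differences. The median standard deviation (SD) of a member within its group was 0.086, against 0.158 over all genes and 0.113 over the 535 bright genes.

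When the sexes were averaged, a single member, an assembly factor, rose with PAT and most others were bounded close to their control level. Averaged over the sexes, Ndufaf4, a factor that assembles the arm of complex I next to ubiquinone, was 1.59-fold higher, and it was the only member with an adjusted p under 0.05 in limma, the threshold for a call throughout. No structural subunit was called in this comparison. That makes 1 of 91 members called higher, where 4.61% of all genes were called higher, and 0 of 91 called lower, where 6.38% were. Among the members with a mean of at least 12, 0 of 52 were called, and 14.0% of the 535 genes of that brightness were. The log2 differences of the members ran from -0.16 to 0.67 with a median of 0.005 (all genes -0.005).

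The members' values were precise enough to bound most of these differences on the scale of the arrays. Whether the brightest probe sets follow RNA amounts in proportion was not tested. For 84 of the 91 members (92.3%), the 95% confidence interval of the PAT difference averaged over the sexes lay within 1.2-fold of control on both sides. The same was true of 50% of all genes. For 90 members the interval lay within 1.5-fold, the exception being Ndufaf4 with an interval of 0.48 to 0.86 on the log2 scale. Atp5b, the catalytic beta subunit of ATP synthase, had an interval of -0.12 to 0.06. Cox4i1, a core-associated subunit of complex IV, had -0.14 to 0.05, and Ndufs1, the largest iron-sulfur subunit of complex I, -0.14 to 0.10. Within a single sex fewer members were bounded so closely. In PAT females the interval lay within 1.2-fold for 42 of 91 members (46.2%, and 10.4% of all genes). In PAT males it did so for 63 of 91 (69.2%, and 26.5% of all genes).

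**Figure D1:**
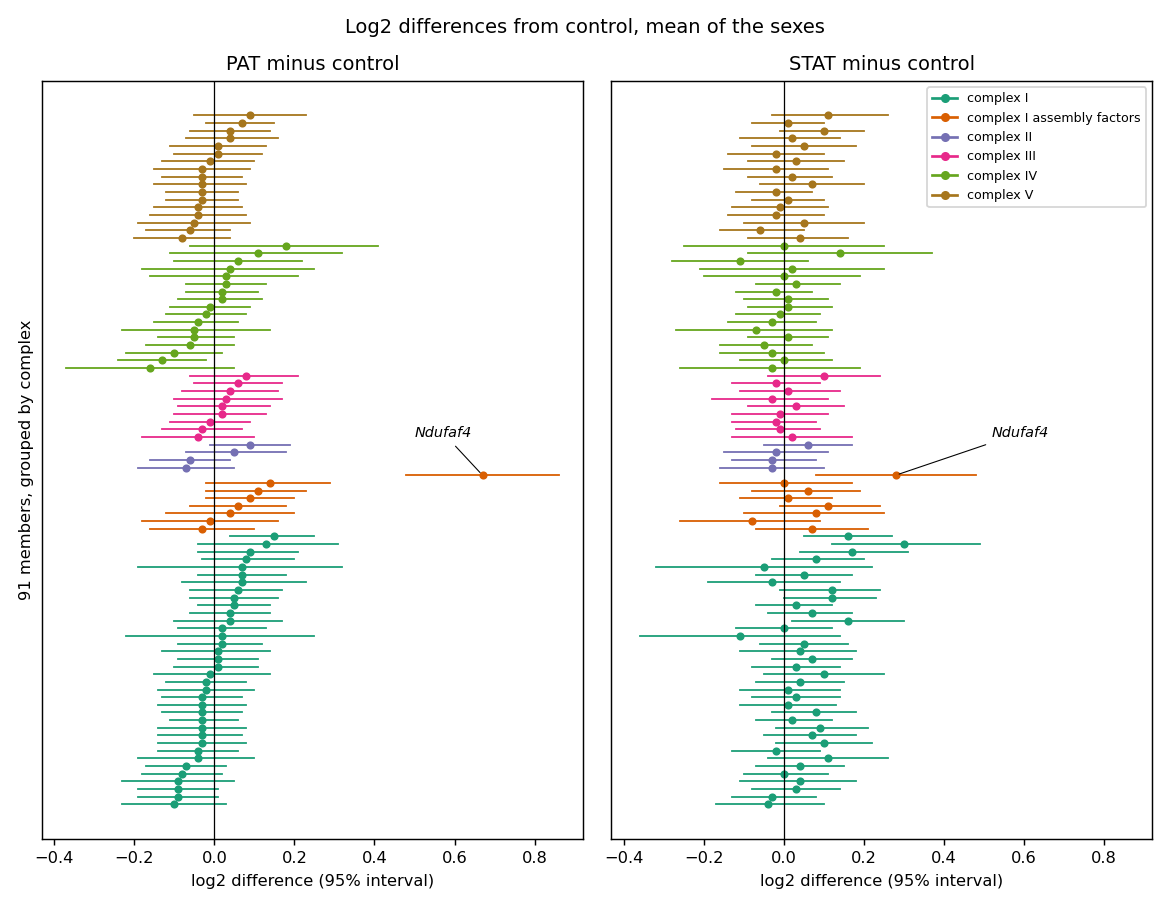
Log2 difference from control of each of the 91 members (points) with its 95% confidence interval (lines), for PAT on the left and STAT on the right, averaged over the sexes. Members are grouped by complex along the vertical axis and ordered by their PAT difference in both panels. Ndufaf4 lies apart at 0.67 with PAT and at 0.28 with STAT, and most other intervals include 0.

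The complex I assembly factors held most of the calls. Ndufaf4 rose with PAT in both sexes, and Ndufaf7, an enzyme that methylates a complex I subunit during its assembly, fell in PAT males. Among the 8 factors in PAT females, 1 was called higher (2.27% of all genes) and 0 lower (1.08%), and all 8 differences were above 0. In PAT males 1 was called higher (2.34% of all genes) and 1 lower (6.68%), and 7 of the 8 differences were below 0.

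Ndufaf4 stood at log2 levels of 9.63, 9.74 and 9.71 in control females and at 10.48, 10.61 and 10.53 in PAT females. The female groups did not overlap, and every PAT array lay well above every control array. In males the levels were 9.84, 9.92, 9.73, 10.01 and 9.78 in controls and 10.39, 10.30, 9.88, 10.60 and 10.56 with PAT. PAT male 3 lay inside the control range and the other PAT males above it. The PAT difference was 0.84 ± 0.14 (standard error, SE) in females (1.80-fold, adjusted p = 0.004) and 0.49 ± 0.11 in males (1.40-fold, adjusted p = 0.0096). Over both sexes it was 0.67 ± 0.09 (adjusted p = 9.6e-05). The female and the male differences differed by 0.35, with an interval of -0.02 to 0.73, and this contrast was not called. With the Gapdh 3-prime to 5-prime difference, a measure of RNA integrity, as a covariate, the male difference was 0.37 ± 0.12 and no longer called (adjusted p = 0.065).

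On the chosen probe set, the mean Ndufaf4 level with STAT lay between those of control and PAT in each sex, while single arrays overlapped. Ndufaf4 was at 10.02, 9.73 and 9.95 in STAT females and at 9.97, 10.38 and 10.30 in STAT males. STAT female 2 and STAT male 1 lay inside the range of their controls, and the other 4 lay above it. Every STAT male lay inside the range of the PAT males, and every STAT female lay below the PAT females. The STAT difference over both sexes was 0.28 ± 0.10 and was not called (adjusted p = 0.26). Without STAT male 1 it was 0.34 and called (adjusted p = 0.041). PAT exceeded STAT by 0.39 ± 0.10 (1.31-fold, adjusted p = 0.02). This call was lost without STAT female 2, where the difference was 0.34 (adjusted p = 0.058), and when only the groups compared entered the fit (adjusted p = 0.077).

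A second, dimmer probe set for Ndufaf4 moved the same way with PAT. In a fit over every probe set it gave 0.50 ± 0.09 for PAT over both sexes (adjusted p = 0.0021) and 0.68 ± 0.15 in females (adjusted p = 0.023). It gave 0.31 ± 0.11 in males (adjusted p = 0.1) and 0.16 ± 0.10 for PAT against STAT (adjusted p = 0.39), neither of which was called. With STAT this probe set gave 0.33 ± 0.10 over both sexes (adjusted p = 0.24) and 0.23 ± 0.15 in females, with no call. In STAT males it gave 0.44 ± 0.13 (adjusted p = 0.13), also not called and above its value in PAT males.

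**Figure D2:**
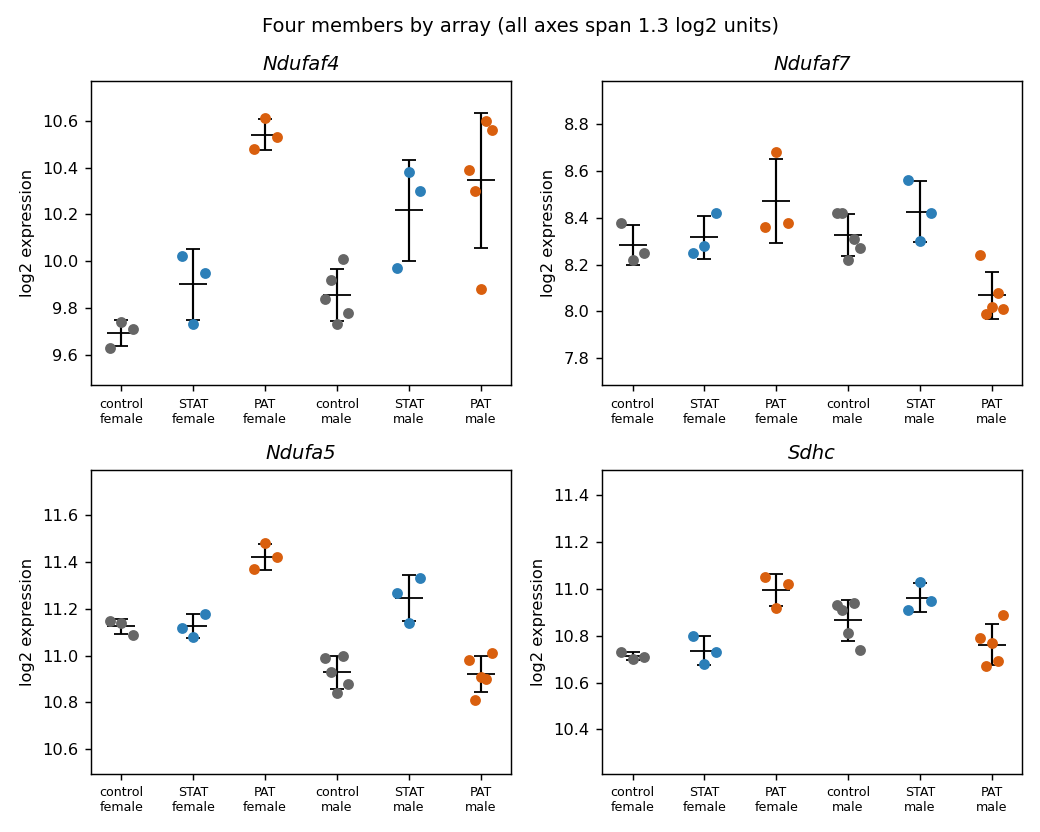
Log2 expression of Ndufaf4, Ndufaf7, Ndufa5 and Sdhc on each array, by group. Points are arrays (control grey, STAT blue, PAT orange), and the horizontal bar and whiskers give the group mean and SD. The PAT arrays of Ndufaf4 are above control in both sexes but for 1 male at 9.88, while Ndufa5 and Sdhc are above control in PAT females and not in PAT males.

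Ndufaf7 was at 8.42, 8.42, 8.22, 8.31 and 8.27 in control males and at 8.24, 7.99, 8.02, 8.08 and 8.01 in PAT males. PAT male 1 reached into the control range and the other PAT males lay below it. The gene fell by 0.26 ± 0.08 on the log2 scale in PAT males (adjusted p = 0.041). This call rests on a narrow margin: leaving out 1 array at a time ended it in 7 of 10 cases, with values of -0.26 to -0.23 and adjusted p-values of 0.058 to 0.11 in those 7. In PAT females Ndufaf7 was at 8.36, 8.68 and 8.38 and in control females at 8.38, 8.22 and 8.25, overlapping groups with a difference of 0.19 (adjusted p = 0.27).

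The other 6 assembly factors were not called in either sex, and the test of the sex difference called 0 of 8. Ndufaf5, which hydroxylates a complex I subunit, was at 7.79, 7.64 and 7.75 in control females and at 7.98, 8.20 and 8.06 in PAT females, with no overlap. In males it was at 7.98, 8.19, 7.63, 7.94 and 7.78 in controls and 7.79, 7.51, 7.49, 7.60 and 7.79 with PAT, where the groups overlapped. The differences were 0.35 ± 0.12 in females (adjusted p = 0.11) and -0.27 ± 0.10 in males (adjusted p = 0.081), neither called. Ndufaf6, which acts early in complex I assembly, showed 0.40 ± 0.12 in females (adjusted p = 0.059) and -0.13 in males (adjusted p = 0.39). Ndufaf1, Ndufaf2, Ndufaf3 and Ndufaf8 had differences of 0.16 to 0.26 in PAT females and of -0.18 to -0.04 in PAT males, with no call.

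The structural subunits of complex I held 1 call in all comparisons with control. Ndufa5, a subunit of the arm that reaches into the matrix, was at 11.15, 11.14 and 11.09 in control females and at 11.37, 11.48 and 11.42 in PAT females. These groups did not overlap, and the rise was 0.30 ± 0.08 (1.23-fold, adjusted p = 0.039). Leaving out any 1 of the 6 female control and PAT arrays ended the call, with differences of 0.27 to 0.33 and adjusted p-values of 0.061 to 0.14. In males Ndufa5 was at 10.99, 10.93, 10.84, 11.00 and 10.88 in controls and 10.98, 10.81, 10.91, 10.90 and 11.01 with PAT, overlapping throughout, with a difference of -0.01 (adjusted p = 0.97). A second probe set gave 0.18 ± 0.09 in females and was not called (adjusted p = 0.27).

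The remaining 35 genes placed in complex I were not called with PAT in either sex. In PAT males 32 of the 36 differences were below 0, with a median of -0.092. Of the 36, 7 had an unadjusted p under 0.05, where 25% of all genes did. The lowest difference was that of Ndufs8, a subunit with iron-sulfur clusters, at -0.22 ± 0.08 (adjusted p = 0.094). Ndufs8 read 12.43, 12.59, 12.41, 12.48 and 12.38 in control males and 12.24, 12.02, 12.23, 12.34 and 12.37 in PAT males, so that every PAT array was below every control array by a small margin. Ndufa13, Ndufa9 and Ndufv2, an iron-sulfur subunit of the NADH-oxidising tip, were separated in the same direction, with differences of -0.16, -0.12 and -0.14. These 4 of 91 members were the ones with every PAT male below every control male, where 5.29% of all genes were so placed. In the opposite direction it was 0 of 91 members and 1.75% of genes. The male margins were small. The highest PAT and the lowest control male both round to 12.71 for Ndufa13 and to 12.49 for Ndufv2. For Ndufa9 they were 12.08 and 12.09. Of these 4, Ndufa9 also had every PAT female above every control female, at 12.20, 12.23 and 12.17 against 12.17, 12.06 and 12.15. The lowest PAT and the highest control value both round to 12.17, so this margin is smaller than the rounding. The female minus male PAT difference of Ndufa9 was 0.20 ± 0.09 and was not called (adjusted p = 0.23).

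Complex II, which is also the succinate dehydrogenase of the citric acid cycle, had 0 of 4 genes called with PAT or STAT. Its membrane anchor Sdhc was at 10.73, 10.70 and 10.71 in control females and at 11.05, 10.92 and 11.02 in PAT females, without overlap. The difference of 0.28 ± 0.08 had an adjusted p that rounds to 0.05 and was not called. In males Sdhc was at 10.93, 10.91, 10.81, 10.94 and 10.74 in controls and 10.79, 10.67, 10.77, 10.69 and 10.89 with PAT, where the groups overlapped, with a difference of -0.11 ± 0.06 (adjusted p = 0.29). A second, dimmer Sdhc probe set gave 0.06 ± 0.12 in females (adjusted p = 0.85) and 0.08 ± 0.09 in males (adjusted p = 0.64), and so did not show the female value. The other anchor, Sdhd, showed 0.18 ± 0.09 in females (adjusted p = 0.29) and -0.07 in males (adjusted p = 0.59). Of the catalytic subunits in females, Sdha, the flavoprotein that oxidises succinate, showed -0.01 ± 0.08 and Sdhb, its iron-sulfur partner, 0.00 ± 0.09. Whether anchors and catalytic subunits differ was not tested. In males Sdha and Sdhb showed -0.12 ± 0.06 and -0.14 ± 0.07, with adjusted p-values of 0.21 and 0.24.

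Complex III had 0 of 9 genes called. Cyc1, cytochrome c1, was at 12.75, 12.69 and 12.75 in control females and 12.81, 12.88 and 12.88 in PAT females, with no overlap and a difference of 0.12 ± 0.09 (adjusted p = 0.43). In males it read 12.65, 12.85, 12.67, 12.70 and 12.74 in controls and 12.57, 12.50, 12.58, 12.69 and 12.82 with PAT, overlapping. Uqcr11, a small subunit, had the smallest p of the complex in PAT females, with 0.26 ± 0.10 (adjusted p = 0.15). The Rieske iron-sulfur protein Uqcrfs1 showed 0.12 in females and -0.01 in males. All 9 differences in PAT males were below 0, between -0.10 and -0.01.

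In complex IV 0 of 17 genes were called, and the median difference was -0.004 in PAT females and -0.001 in PAT males. Cox6a1, the widely expressed isoform of subunit 6a, was at 14.29, 14.27 and 14.38 in control females and 14.30, 14.39 and 14.34 in PAT females, a difference of 0.03 ± 0.07. Its muscle isoform Cox6a2 went the opposite way in the sexes, with -0.28 ± 0.14 in females (adjusted p = 0.26) and 0.18 ± 0.11 in males (adjusted p = 0.3), at levels of 6.43 to 7.08 over control and PAT arrays. Cox7a1, the heart and muscle isoform of subunit 7a, showed 0.18 ± 0.11 over both sexes, and its widely expressed partner Cox7a2 0.03 ± 0.05. Cox4i1 showed -0.05 ± 0.04 and its oxygen-regulated isoform Cox4i2 0.04 ± 0.10. The testis-type genes Cox6b2, Cox7b2 and Cox8c lay between -0.10 and 0.06. None of these isoform genes was called in any comparison of treatments.

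The complex IV gene with the smallest p was Cox7a2l, which joins complexes III and IV into supercomplexes. It was at 11.98, 11.94 and 12.01 in control females and 11.92, 11.86 and 11.86 in PAT females. In males it was at 11.98, 12.10, 12.07, 11.86 and 11.97 in controls and at 11.89, 11.85, 11.90, 11.88 and 11.66 with PAT. The female groups did not overlap, and in males control male 4 reached into the PAT range. Over both sexes the difference was -0.13 ± 0.05 (adjusted p = 0.12), below the level needed for a call.

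In complex V 0 of 17 genes were called. The 3 genes Atp5g1, Atp5g2 and Atp5g3 encode the same mature c subunit of the rotating ring, and their RNAs had separate values. In PAT females Atp5g1 showed 0.26 ± 0.11 (adjusted p = 0.16), Atp5g2 -0.02 ± 0.09 (adjusted p = 0.93) and Atp5g3 0.10 ± 0.07 (adjusted p = 0.44). In PAT males they showed -0.08, -0.15 and 0.04. Atp5g1 was at 12.36, 12.29 and 12.29 in control females and at 12.47, 12.68 and 12.56 in PAT females, above all controls. In PAT males 15 of the 17 complex V differences were below 0, with a median of -0.066.

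Counted by sex, the differences from control lay on opposite sides of 0. In females 2 of 91 members were called higher (Ndufaf4 and Ndufa5), where 2.27% of all genes were, and 0 of 91 lower, where 1.08% were. In males 1 of 91 was called higher (Ndufaf4; 2.34% of genes) and 1 lower (Ndufaf7; 6.68% of genes). The median difference of the members was 0.068 in females, with 66 of 91 above 0, and -0.072 in males, with 76 of 91 below 0. Over all genes the medians were -0.006 and -0.011. In females 32 of 91 members had every PAT array above every control array, where 14.7% of all genes did, and 3 members (Cox7a2l, Cox7b2 and Ndufa1) had every PAT array below, where 13.2% of genes did.

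The test of the sex difference itself called no member. For the PAT difference in females minus that in males, 0 of 91 members were called and 1 of 18193 genes was (0.00550%). An unadjusted p under 0.05 was found for 21 members (23.1%) and for 18.6% of all genes. The median of this contrast was 0.13 over the members, with 84 of 91 above 0, and 0.029 over all genes. By complex the median was 0.343 for the 8 assembly factors, 0.192 for complex II, 0.171 for complex I, 0.13 for complex III, 0.104 for complex V and 0.037 for complex IV. The smallest p-values were those of Ndufaf5, at 0.62 ± 0.16, and Sdhc, at 0.39 ± 0.10, both with an adjusted p of 0.11. The second Sdhc probe set gave -0.02 ± 0.15 for this contrast (adjusted p = 0.95), so the value for Sdhc rests on its brighter probe set. The median over the members stayed between 0.101 and 0.157 when each array was left out in turn.

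**Figure D3:**
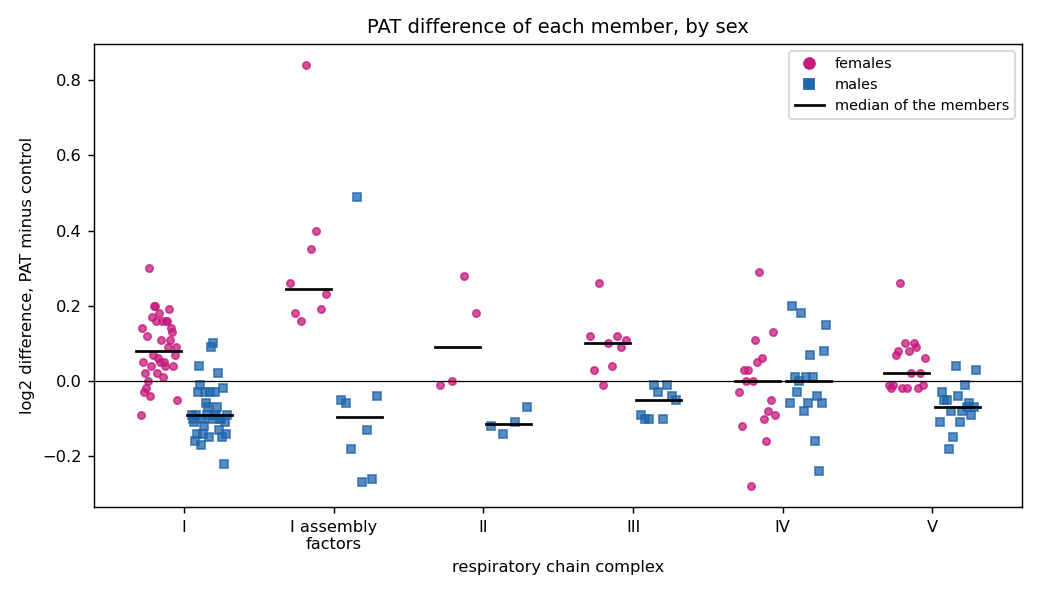
Log2 difference between PAT and control of each member in females (circles) and males (squares), by complex, with the median of the members as a black bar. The female median is above the male one for the assembly factors (0.243 against -0.096), complex II (0.09 against -0.112) and complexes I, III and V, while both complex IV medians lie near 0.

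The mean deviation of the 91 members from their 22-array means gives each array 1 value. It was 0.067 to 0.125 on the PAT females, above the -0.016 to 0.038 of the control females. On the PAT males it was -0.183 to 0.011, overlapping the -0.085 to 0.060 of the control males. The PAT females thus lay outside the range of their controls by this measure, and the PAT males did not. Of all genes 27.9% were separated in either direction between 3 and 3 female arrays, and 7.04% between 5 and 5 male arrays. The sexes therefore cannot be compared by separation alone. By complex the female ranges overlapped for complex IV (-0.011 to 0.060 against 0.025 to 0.065) and complex V (0.025 to 0.114 against -0.003 to 0.047), and not for the others.

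**Figure D4:**
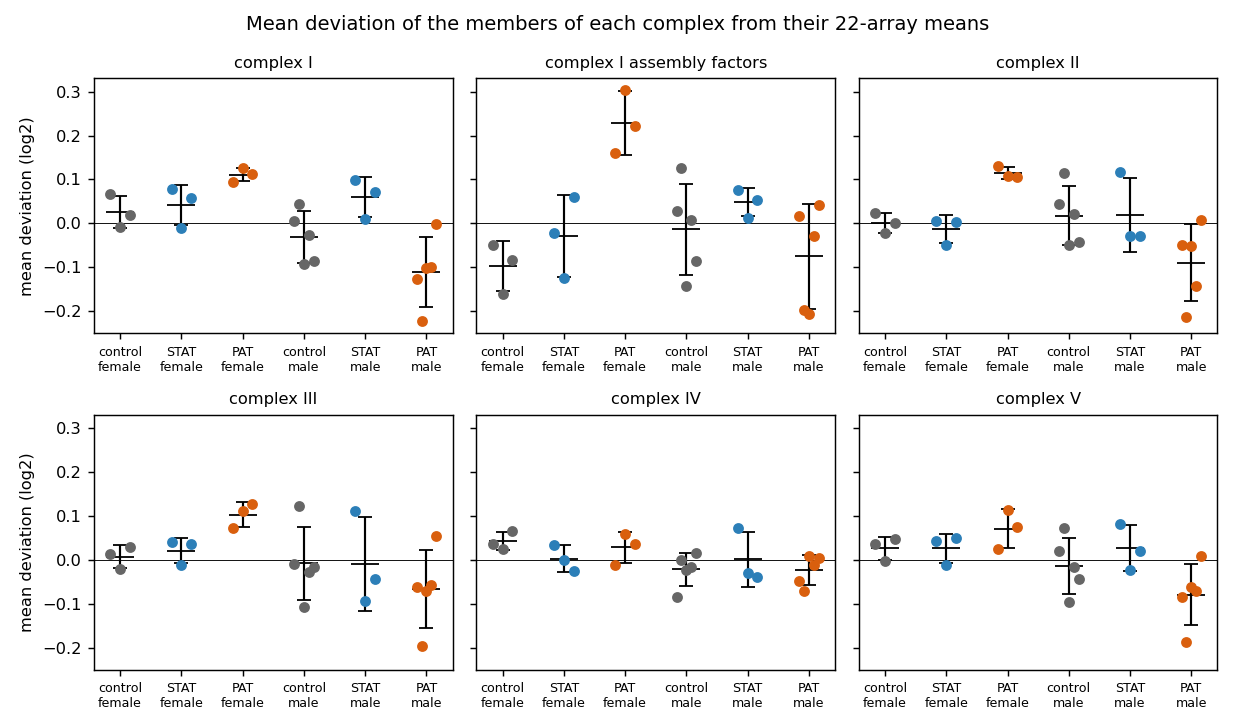
Mean deviation of the members of each complex from their means over 22 arrays, by group. Points are arrays, and bars and whiskers are the group mean and SD. For the 8 assembly factors the PAT females lie at 0.160 to 0.304 and the control females at -0.161 to -0.049, and complex IV stays within -0.084 to 0.074 on every array.

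Markers of dividing cells, like the members, had a median above 0 in PAT females and below 0 in PAT males. So did markers of macrophages and dendritic cells (0.174 and -0.161), goblet and Paneth cells (0.026 and -0.049) and T cells (0.014 and -0.074). Markers of enterocytes, smooth muscle, B cells, adipocytes, skeletal and heart muscle and pancreas acinar cells did not. The mean log2 level of the 11 measured dividing cell markers was 9.19 to 9.45 on PAT females and 8.67 to 8.95 on control females. On PAT and control males it was 8.33 to 9.11 and 8.67 to 9.08. Over all genes 2.27% were called higher and 1.08% lower in PAT females, and 2.34% and 6.68% in PAT males. Of the 11 dividing cell markers 2 were called higher in PAT females and 0 in PAT males, and 0 lower in either. Their medians were 0.509 and -0.192. In PAT males 2 of 10 goblet and Paneth cell markers and 2 of 9 T cell markers were called lower. In PAT females 1 of the 9 T cell markers was. Of 11 enterocyte markers 2 were called higher and 1 lower in PAT females, and 2 higher and 0 lower in PAT males, with medians of -0.12 and 0.077. Their mean level was 12.88 to 13.13 on PAT females and 12.75 to 12.88 on control females, and 12.71 to 13.15 and 12.51 to 12.85 in males. The Gapdh 3-prime to 5-prime difference was -0.07 ± 0.04 (SD, n = 3) on PAT females and -0.15 ± 0.06 (n = 3) on control females, and -0.16 ± 0.06 (n = 5) and -0.24 ± 0.03 (n = 5) in males. The part of these in the members' values was not tested, beyond the fit with the Gapdh covariate, in which the members' median was 0.083 in females and -0.057 in males.

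With STAT no respiratory chain gene was called. Over both sexes 0 of 91 members and 0% of 18193 genes were called by limma, and 6 members and 2391 genes had an unadjusted p under 0.05. In STAT females it was 0 of 91 members and 0% of genes, with 0 members and 602 genes under 0.05, and in STAT males 0 of 91 members and 0% of genes, with 11 members and 2852 genes under 0.05. The interval of the STAT difference over both sexes lay within 1.5-fold for all 91 members and within 1.2-fold for 81 of them.

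In STAT males the smallest p-values were those of 2 complex I subunits, Ndufa5 and Ndufb6. Ndufb6, a subunit of the membrane arm, was at 11.94, 11.54, 11.34, 11.75 and 11.52 in control males and at 11.95, 12.18 and 12.33 in STAT males, a difference of 0.53 ± 0.12 (adjusted p = 0.11). Its groups did not overlap, but STAT male 1 exceeded the highest control male by very little. Ndufa5 was at 11.27, 11.14 and 11.33 in STAT males, all above the control males, with a difference of 0.32 ± 0.07 (adjusted p = 0.11). The second Ndufa5 probe set gave 0.13 ± 0.08 in STAT males (adjusted p = 0.45). In STAT females the chosen Ndufa5 probe set was at 11.12, 11.08 and 11.18, overlapping the control females. Both genes had the 2 lowest p-values of the members for the STAT difference in females minus males, -0.47 ± 0.18 for Ndufb6 and -0.32 ± 0.10 for Ndufa5, with an adjusted p of 0.99 for each. That contrast called 0 of 91 members and 0% of genes.

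Across the members, 28 of 36 complex I differences were above 0 in STAT males. The groups without overlap held 7 of 91 members above control, where 2.53% of all genes were, and 1 of 91 below (Cox6b2), where 3.64% were. In STAT females it was 2 of 91 above (4.79% of genes) and 2 of 91 below (5.10%). These values turn on which STAT males are counted. STAT males 2 and 3 stood apart in RNA integrity: their beta-actin 3-prime to 5-prime difference was 0.59 and 0.60, against 0.28 to 0.42 on the other 20 arrays, and their Gapdh difference was -0.04 and -0.08, against -0.25 on STAT male 1. The highest Ndufb6 values of the STAT males, 12.18 and 12.33, are on these 2 arrays, and the part of the actin difference in them was not tested. Without STAT male 1, 5 members were called higher in STAT males (Ndufa5, Ndufaf4, Ndufb6, Ndufc2 and Ndufs7), while 10.8% of all genes were called, and the members' median went from 0.034 to -0.003. Without STAT males 2 and 3 the group is 1 array, whose spread is then assumed from the other groups, so only the median over the members, 0.111, is given. In STAT males the enterocyte markers had a median of -0.492 over 11 genes with 0 called, and smooth muscle markers of 0.266 over 10 genes with 0 called. The mean enterocyte level was 11.86 to 12.74 on STAT males and 12.51 to 12.85 on control males. Markers of dividing cells had a median of 0.241 over 11 genes in STAT males, with 0 called. Their mean level was 8.91 to 9.28 on STAT males and 8.67 to 9.08 on control males. The part of these cell types in the members' values was not tested.

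Set directly against STAT, PAT had 1 of 91 members called higher, again Ndufaf4, where 2.89% of genes were, and 0 of 91 lower, where 2.98% were. In complex I 30 of the 36 differences between PAT and STAT were below 0, with a median of -0.06 against -0.003 over all genes. Ndufa13, Ndufa12, Ndufa7 and Ndufv3 had unadjusted p-values under 0.05 with differences of -0.13 to -0.11, and adjusted p-values of 0.18 to 0.23. These are 4 of the 36, and 20.7% of all genes had an unadjusted p under 0.05 in this comparison. Among control arrays, females and males differed in 0 of 91 members and in 10 genes of 18193 (0.0550%). The control contrast was furthest from 0 for Cox4i2, at 0.31 (adjusted p = 0.38), and the smallest p was that of Ndufa5, at 0.20 ± 0.07 (adjusted p = 0.24).

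The 91 members had 180 probe sets, 51 members had more than 1, and these did not always move together. In the PAT comparison over both sexes all probe sets of a gene had the same sign for 30 of these 51 members. Some dimmer probe sets were called where the chosen one was not. For Sdha a second probe set gave -0.18 ± 0.05 with PAT over both sexes (adjusted p = 0.04), where the chosen one gave -0.06. For Atp5g1 a probe set with a mean of 3.81 gave -0.25 ± 0.07 (adjusted p = 0.022), opposite in sign to the 0.09 of the chosen one. For Ndufb8 a probe set with a mean of 7.32 gave -0.40 ± 0.07 in PAT males (adjusted p = 0.0023), where the chosen one gave -0.03. For Ndufab1, the acyl carrier protein that is part of complex I, one with a mean of 6.17 gave -0.43 ± 0.10 in PAT males (adjusted p = 0.011), where the chosen one also gave -0.03. For Cox7a2l a second probe set gave -0.25 ± 0.07 in PAT males (adjusted p = 0.031), in the same direction as the chosen one. Which transcripts such probe sets reach was not tested.

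Lists of other genes of energy metabolism, chosen with earlier results known, are read against the shares of all genes called with PAT over both sexes, 4.61% higher and 6.38% lower. Of 40 measured assembly factors outside the symbol rule, 1 was called higher and 2 lower, which is near or below those shares. Cox11, which delivers copper to complex IV, rose by 0.32 ± 0.06 (adjusted p = 0.0023). Oxa1l, which inserts proteins into the inner membrane, fell by 0.29 ± 0.07 (adjusted p = 0.014). Tmem126b, a complex I assembly factor, fell by 0.30 ± 0.09 (adjusted p = 0.031). Within a sex, Cox11, Oxa1l and Tmem126b were called only in PAT males, at 0.31, -0.40 and -0.40. In PAT males Surf1, which helps to build complex IV, fell by 0.29 ± 0.09 (adjusted p = 0.049), and in PAT females Cox18 rose by 0.42 ± 0.11 (adjusted p = 0.036).

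Of 17 regulators of mitochondrial gene expression, 2 were called higher and 0 lower with PAT, where 4.61% and 6.38% of all genes were. Nrf1, a transcription factor of many respiratory genes, rose by 0.31 ± 0.08 (adjusted p = 0.02). Tefm, the elongation factor of mitochondrial transcription, rose by 0.35 ± 0.09 (adjusted p = 0.017). Within a sex, Nrf1 was called only in PAT males (0.46 ± 0.10, adjusted p = 0.0096). Tefm was called only in PAT females (0.56 ± 0.15, adjusted p = 0.037). In PAT males Ppargc1a, a coactivator of mitochondrial biogenesis, rose by 0.53 ± 0.16 (adjusted p = 0.043). In the same PAT males 0 of the 83 members that are not Ndufaf genes were called on their chosen probe set. Of all genes 2.34% were called higher and 6.68% lower there. In the fit over every probe set, dimmer probe sets of Sdha, Cox7a2l, Ndufb8 and Ndufab1 were called lower in PAT males.

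Of 16 genes of the citric acid cycle and pyruvate dehydrogenase, 1 was called, Dlat, at 0.19 ± 0.06 (adjusted p = 0.034). Within a sex, Dlat was called in PAT females (0.41 ± 0.09, adjusted p = 0.018) and not in PAT males. Of 13 carriers and electron donors 1 was called, Gpd2, the mitochondrial glycerol phosphate dehydrogenase, which was 0.54 ± 0.13 higher with PAT than control (1.45-fold, adjusted p = 0.0084) and 0.81 ± 0.13 higher than with STAT (adjusted p = 0.00095). Gpd2 was called in PAT males (0.69 ± 0.15, adjusted p = 0.0088) and not in PAT females. Of 10 glycolysis genes 4 were called higher and 0 lower, beside the same 4.61% and 6.38% of all genes. Hexokinase Hk2 rose 2.67-fold (1.41 ± 0.29, adjusted p = 0.0039), and Pfkl, Pgk1 and Pgam1 rose by 0.32, 0.20 and 0.19. Within a sex, only Hk2 was called, in PAT males (1.55 ± 0.36, adjusted p = 0.011). With STAT 0 genes were called in each of these lists. Of the subunits encoded in mitochondrial DNA only ND5 was measured, at -0.12 ± 0.08 with PAT (adjusted p = 0.36).

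The promoters of the members are shown for Ndufaf4, Ndufa5 and Ndufaf7, the 3 genes called on their chosen probe set. The PAT female call of Ndufa5 ends without any 1 of its 6 arrays, and the PAT male call of Ndufaf7 ends without some of its arrays. The stretches end just before the first start site of the gene and are written 5′ to 3′ on the gene's strand, from RefSeq on GRCm38.p6, with letters of an NRF1 match in capitals. Ndufaf4 is on chromosome 4 (plus strand, chr4:24897953-24898082), Ndufa5 on chromosome 6 (minus strand, chr6:24527691-24527820) and Ndufaf7 on chromosome 17 (plus strand, chr17:78937005-78937105).
Ndufaf4: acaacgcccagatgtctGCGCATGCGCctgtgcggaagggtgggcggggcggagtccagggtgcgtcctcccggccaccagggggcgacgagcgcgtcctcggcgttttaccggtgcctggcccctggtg
Ndufa5: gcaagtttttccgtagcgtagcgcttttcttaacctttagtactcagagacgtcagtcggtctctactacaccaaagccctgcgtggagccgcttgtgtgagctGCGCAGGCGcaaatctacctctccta
Ndufaf7: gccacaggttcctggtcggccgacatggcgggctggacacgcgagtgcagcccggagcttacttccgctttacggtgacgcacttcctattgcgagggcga

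Promoter windows of 300 bases (250 before the start and 50 after) were present for 74 of the 91 members, 79 windows in all. The core letters of the NRF1 motif, GCGCANGCG on either strand, were in 26.6% of the members' windows and in 6.25% of all 32851 windows. The ETS core CCGGAAG was in 24.1% and 8.86%, the YY1 core AAGATGGC in 12.7% and 2.75%, and the estrogen-related receptor core AAGGTCA in 10.1% and 4.72%. The members' windows were also richer in G and C, with a median of 59.0% against 52.7%. By complex the NRF1 letters were in 7 of 18 windows of complex V, 7 of 34 of complex I and 1 of 12 of complex IV. Ndufaf4 and Ndufa5 hold them, and the Ndufaf7 window holds none of the 4 motifs. Of the members with a window, 20 held the NRF1 letters and had a median PAT difference of 0.03 over both sexes, and the other 54 had -0.01. A match of letters is a description and shows no binding.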

How the data were processed

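Terminal ileum RNA was measured on 22 arrays. The deposited values are log2 expression. Per the submitters' processing notes, the authors used RMA and affy, whose versions the sources used here do not give. RMA corrects background, normalizes between arrays and gives no detection call. Of 45101 probe sets, 64 were array controls, 34945 had 1 gene symbol in the platform annotation, 932 several and 9160 none, and the last 2 kinds were not used. All 91 members had a gene ID in the RefSeq table.

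A model with 1 mean per treatment and sex was fitted to all arrays with limma 3.58.1 in R 4.3.3 (16 residual degrees of freedom, 4.88 added by the empirical Bayes step). Benjamini-Hochberg adjustment ran over all 18193 genes, two-sided, with a threshold of 0.05. The fit was tested on simulated data. The precision of each value is limited by the number of arrays. The members, the pathway and marker lists, the motifs and the alternatives were chosen with earlier results of these data known. Named were called members, the smallest p of a complex without a call, complex II, Cyc1, isoform genes, and up to 4 called genes per list. Genes called after leaving out an array, separated genes and differing probe sets were named after their values were seen. Alternatives were the mean of probe sets, every probe set, a mean of at least 6, repeated quantile normalization, median centring, only the groups compared, the Gapdh covariate, a term for title numbers of 130 and above, STAT males 2 and 3 left out, and each array left out.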

Additional observations from a re-analysis of the deposited data

Results flagged for a closer look

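In the 2 groups of 5 arrays, the 36 named members and 7 means over members, 86 sets of values in all, were examined for an array far from the others, and 6 sets had a gap to the nearest array that took up more than 0.710 of the whole range of the group. Chance alone gives such a gap in about 1 of 20 sets. In control males, Atp5g3 was highest on array 5 at 13.74 against 13.69 to 13.70 on the others (gap 0.845 of the range), and Cox8c was lowest on array 1 at 7.53 against 7.83 to 7.96 (0.714). In PAT males, Atp5e and Ndufa7 were both lowest on array 2, at 11.89 against 12.11 to 12.19 (0.737) and 11.21 against 11.41 to 11.49 (0.729). Cox6a2 was lowest on PAT male 1 at 6.57 against 6.94 to 7.08 (0.721), and Cox7a2l on PAT male 5 at 11.66 against 11.85 to 11.90 (0.791). PAT male 2 also had the lowest mean over the 91 members, -0.183.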

How the results depend on the processing

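The call of Ndufaf4 with PAT over both sexes and in females was kept under every alternative run, and no called difference of Ndufaf4, Ndufa5 or Ndufaf7 changed sign. Sdhc, which was not called, changed sign with its second probe set: 0.08 in place of -0.11 for PAT males, and -0.02 in place of 0.39 for the sex contrast. Called members for PAT over both sexes (1) became 4 with every probe set tested (1 higher, and Sdha, Atp5g1 and Ndufb8 lower), 2 with genes of a mean of at least 6, 2 with repeated quantile normalization, 3 with the title number term and 1 to 2 with an array left out. For PAT against STAT (1) the count was 0 with the mean of probe sets, 0 with only the groups compared, 2 with the title number term and 0 to 1 with an array left out. In PAT females (2) it was 1 with the mean of probe sets, with every probe set, with median centring, with only the groups compared and with the Gapdh covariate, 4 with genes of a mean of at least 6, and 1 with any of its 6 arrays left out. In PAT males (2) it was 4 with the mean of probe sets, 5 with every probe set (1 higher, 4 lower), 1 with quantile normalization, median centring or only the groups compared, 0 with the Gapdh covariate and 1 to 3 with an array left out. For STAT it ran from 0 to 3 over both sexes and from 0 to 5 in males, each highest without STAT male 1, where the members' median in STAT males went from 0.034 to -0.003. The STAT female, control and sex difference counts stayed at 0. The cause of these shifts was not tested. Scaling moved the median of all genes by at most 0.018. No paired analysis was possible because the labels give the groups no shared replicate numbers.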
